A study of Arabidopsis thaliana with 24 samples.

Results

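Transcripts of 3 plant defensin genes, PDF2.1 (AT2G02120), PDF1.4 (AT1G19610) and PDF1.2 (AT5G44420), were followed in germinating Arabidopsis thaliana seeds. The members are the genes that the platform annotation gives under these 3 names. Each is reported by 1 probe set of the Affymetrix ATH1 array, a set of short probes for the transcript, among 22746 probe sets tested. Of 15 listed genes of the defensin family the annotation names 12, the 3 members included, so 9 others serve as context. Defensin genes outside the list were not searched for.

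The 24 arrays formed 4 groups of 6. They were wild type (Columbia) and the pkl mutant, each germinated with solvent only or with 10 nM uniconazole, an inhibitor of gibberellin synthesis that the labels also call uniconazole-P. All 4 groups were kept on Murashige and Skoog medium with Gamborg's vitamins and agar, under continuous light, and the medium of every group held 0.01% methanol. The mutated gene encodes PICKLE, a CHD3-type chromatin remodelling factor. The labels give neither the pkl allele nor the age of the seeds at harvest, and they call the arrays of a group biological replicates without saying how cultures were separated.

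Plant defensins are small secreted peptides whose fold is held together by disulfide bridges between conserved cysteines, and many of them inhibit fungal growth. In Arabidopsis the PDF1 group holds PDF1.1, known from seeds, and the PDF1.2 genes, which are standard markers of jasmonate and ethylene signalling in infected leaves. The PDF2 group is expressed in many healthy organs, and several of its genes lie side by side on chromosome 2.

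PDF2.1 and PDF1.4 had been selected on their signal difference between pkl and wild type: PDF2.1 in both media and PDF1.4 in uniconazole are among the 8 largest rises of genes with a symbol. Their differences between the genotypes are therefore described here with no test, and so are those of PDF1.2. The comparisons of uniconazole with solvent did not choose the members and were tested with limma across all probe sets, with Benjamini-Hochberg adjustment and a threshold of 0.05. Signals are deposited linear intensities, and log2 changes are on the log2(signal + 16) scale, which understates changes of dim probe sets. The 95th percentile of bacterial control probe sets, a signal of 54.9, marks background.

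Array medians lay between 310.2 and 371.4, with the highest group mean, 365 ± 5.41 (SD, n = 6), in pkl with uniconazole. The log2 3′/5′ ratio of the GAPDH control, which follows RNA quality, had its highest group mean, 0.36 ± 0.07, with uniconazole in wild type, and the means of the other groups lay between 0.23 and 0.29. Seed transcripts were present in every group: ICL, isocitrate lyase of seed oil breakdown, had group means between 36255 and 39080.

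PDF2.1 separated the genotypes completely. In solvent its signal lay between 212.5 and 326.6 in wild type, with a median of 259, and between 1412 and 2151 in pkl, with a median of 1759. In uniconazole it lay between 220.0 and 311.0 in wild type (median 296) and between 1888 and 2599 in pkl (median 2225). The dimmest pkl array was thus above the brightest wild-type array in both media, and all 36 pairs of a pkl and a wild-type array had the higher value in pkl. Over all probe sets, 3.71% were higher in pkl with no overlap between the groups in solvent and 4.95% in uniconazole.

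The mean of PDF2.1 was 6.65 times as high in pkl as in wild type in solvent, a log2 change of 2.67 ± 0.11 (SE), and 7.90 times as high in uniconazole, a log2 change of 2.91 ± 0.11. Among the 22746 probe sets these were rank 9 and rank 8 from the highest change. In whole seeds, a larger share of cells that express a gene and more RNA per cell cannot be told apart. Of all probe sets, 11.7% passed the threshold between the genotypes in solvent and 18.6% in uniconazole.

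PDF1.4, a defensin of the PDF1 group, was dimmer and moved in steps. Every array was above background. In solvent its signal lay between 60.6 and 120.3 in wild type (median 98.0) and between 120.1 and 230.6 in pkl (median 201). In uniconazole it lay between 83.0 and 151.0 in wild type (median 102) and between 279.2 and 646.8 in pkl (median 440). The groups met in solvent, where the lowest pkl array fell just under the highest wild-type array and 5 of 6 pkl arrays were above all of wild type. In uniconazole they were apart.

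The mean of PDF1.4 in pkl was 1.98 times that of wild type in solvent (log2 change 0.88 ± 0.22, SE) and 4.03 times in uniconazole (log2 change 1.83 ± 0.22). Its 6 arrays of pkl with uniconazole were the most scattered of the gene, with 279.2, 296.0 and 361.9 on 3 of them and 518.8, 614.6 and 646.8 on the others. The coefficient of variation was 35.8% there, against 12.5% for PDF2.1 on the same arrays.

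PDF1.2, the jasmonate and ethylene marker, leaned the other way. In solvent its signal lay between 188.6 and 419.0 in wild type (median 248) and between 132.7 and 239.3 in pkl (median 209). In uniconazole it lay between 176.3 and 358.0 in wild type (median 252) and between 148.7 and 258.0 in pkl (median 184). The genotypes overlapped in both media, with pkl higher in 10 of 36 pairs in solvent and in 6 of 36 in uniconazole. The log2 difference between pkl and wild type was -0.40 ± 0.19 (SE) in solvent and -0.42 ± 0.19 in uniconazole.

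**Figure D1:**
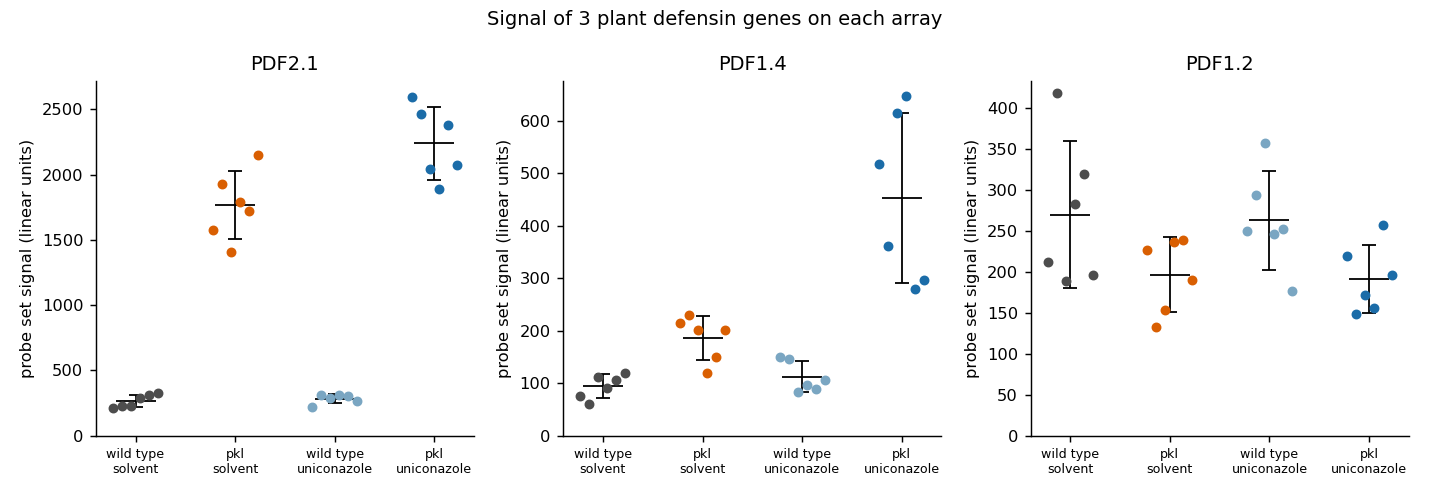
Probe set signal (linear units, axes from 0) of PDF2.1, PDF1.4 and PDF1.2 on each of 24 arrays. Points are single arrays, bars show the group mean and SD (n = 6). PDF2.1 is at 1412 or more on every pkl array and at 326.6 or less on every wild-type array, PDF1.4 is highest in pkl with uniconazole, and the groups of PDF1.2 overlap.

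The response to uniconazole asks whether these defensins change when gibberellin synthesis is inhibited. In wild type 0 of the 3 members passed, against 16.5% of all probe sets. The wild-type arrays also belong to the comparisons of genotypes in which PDF2.1 and PDF1.4 were selected. Their tests in wild type are therefore not fully independent of that choice. PDF2.1 had 265.5 ± 48.7 in solvent and 283 ± 34.8 in uniconazole (SD, n = 6), a log2 change of 0.10 ± 0.11 (SE, limma adjusted p = 0.65, 95% interval -0.14 to 0.33). PDF1.4 had 94.2 ± 22.6 and 112 ± 29.6, a log2 change of 0.22 ± 0.22 (adjusted p = 0.582, interval -0.23 to 0.66). The interval of PDF1.4 is the wider one and allows a rise of up to 0.66 on the log2 scale.

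For PDF1.2 the wild-type means were 269.9 ± 89.7 in solvent and 263.0 ± 60.0 in uniconazole (log2 change -0.01 ± 0.19, limma adjusted p = 0.986, 95% interval -0.41 to 0.39). The groups overlapped for all 3 members. For PDF1.2, 18 of 36 pairs were higher with uniconazole.

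In pkl 2 of the 3 members rose with uniconazole, where 11.4% of all probe sets rose and 22% passed in either direction. PDF1.4 went from 186 ± 42.3 to 453 ± 162 (SD, n = 6), a log2 change of 1.17 ± 0.22 (SE, limma adjusted p = 1.69e-04), with all 6 treated arrays above all untreated ones, as for 6.84% of all probe sets. The arrays of pkl with uniconazole also belong to the comparison of genotypes in which PDF1.4 was singled out, so the test is not fully independent of that choice, and the same holds for PDF2.1. It kept its direction and call in each of 33 further settings.

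PDF2.1 went from 1765 ± 261 to 2240 ± 279 in pkl (log2 change 0.35 ± 0.11, SE, limma adjusted p = 0.0299). The groups overlapped, and 3 of 6 treated arrays were above all untreated ones. The call was lost with arrays scaled to one median (adjusted p = 0.127), with the GAPDH ratio as a covariate (0.0753), and when any 1 of 6 arrays was left out, which were arrays 1, 3 and 5 of pkl in solvent and arrays 1, 2 and 5 of pkl in uniconazole (adjusted p up to 0.0892). PDF1.2 had 197 ± 45.6 and 192 ± 41.6 (log2 change -0.03 ± 0.19, adjusted p = 0.953).

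The interaction subtracts the pkl effect measured in solvent from that in uniconazole and asks whether the mutation and the inhibitor combine additively on the log scale. Its first term is the comparison in which PDF2.1 and PDF1.4 were selected, so their values are a description with no test. The value was 0.95 ± 0.30 (SE) for PDF1.4 and 0.25 ± 0.16 for PDF2.1 on the log2 scale. PDF1.2 had -0.02 ± 0.27 (limma adjusted p = 0.994). Over all probe sets, 32 passed, or 0.141%.

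Ordered by level, PDF2.1 ran from wild type in solvent through wild type in uniconazole and pkl in solvent to pkl in uniconazole, and the neighbours overlapped except between wild type and pkl. PDF1.4 followed the same order, and pkl with uniconazole alone stood clear of its neighbour. For PDF1.2 the order was pkl in uniconazole, pkl in solvent, wild type in uniconazole and wild type in solvent, and every group overlapped with the next.

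PDF2.1 sits in a run of defensin genes on chromosome 2. In the gene order of RefSeq's TAIR10.1 table, PDF2.2 (AT2G02100, also LCR69) lies on one side with 2 loci between them that no probe set names alone, PDF2.3 (AT2G02130, LCR68) is the next gene on the other side, and PDF2.6 (AT2G02140, LCR72) follows. Neither flanking gene passed between the genotypes. In solvent, PDF2.2 had 13580 ± 1348 in the mutant against 15459 ± 1112 (SD, n = 6; log2 change -0.19 ± 0.08, SE, limma adjusted p = 0.119, 95% interval -0.35 to -0.03). It leaned lower in the mutant there, with 5 of 6 pkl arrays below all of wild type and pkl higher in 4 of 36 pairs. In uniconazole the log2 change of PDF2.2 was 0.00 ± 0.08 (adjusted p = 0.992, 95% interval -0.16 to 0.16). PDF2.3 had 5788 ± 972 in the mutant against 6678 ± 1053 (log2 change -0.21 ± 0.10, adjusted p = 0.214), and 0.06 ± 0.10 in uniconazole (adjusted p = 0.752).

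Both flanking genes rose with uniconazole in pkl, where 11.4% of all probe sets rose, and in wild type, where 9.07% rose. In pkl PDF2.2 reached 18605 ± 1109 (log2 change 0.46 ± 0.08, SE, limma adjusted p = 5.59e-05) and PDF2.3 8618 ± 972 (0.58 ± 0.10, adjusted p = 8.49e-05). Each had all 6 treated arrays above all untreated ones, as for 6.84% of all probe sets. In wild type PDF2.2 rose to 18729 ± 2432 (0.27 ± 0.08, adjusted p = 0.0158) and PDF2.3 to 8235 ± 568 (0.31 ± 0.10, adjusted p = 0.033). These wild-type calls were lost with arrays scaled to one median, where the log2 changes were 0.22 (adjusted p = 0.148) and 0.27 (0.0936). They were also lost with the GAPDH ratio as a covariate, where the log2 change was 0.23 for PDF2.2 (adjusted p = 0.123) and 0.31 for PDF2.3 (0.106), the latter as large as without it. The call of PDF2.3 in wild type was also lost with no variance trend (0.0584), without array 1, 2 or 3 of wild type in solvent and without array 2, 4 or 5 of wild type in uniconazole (adjusted p up to 0.0929).

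PDF2.6, linked to cadmium binding, lay near background. Its mean was 87.3 ± 30.9 in pkl with uniconazole and between 44.0 and 51.1 in the other groups, which makes it at least 1.59 times brighter there. It passed neither against wild type (limma adjusted p = 0.184) nor against solvent (adjusted p = 0.132).

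**Figure D2:**
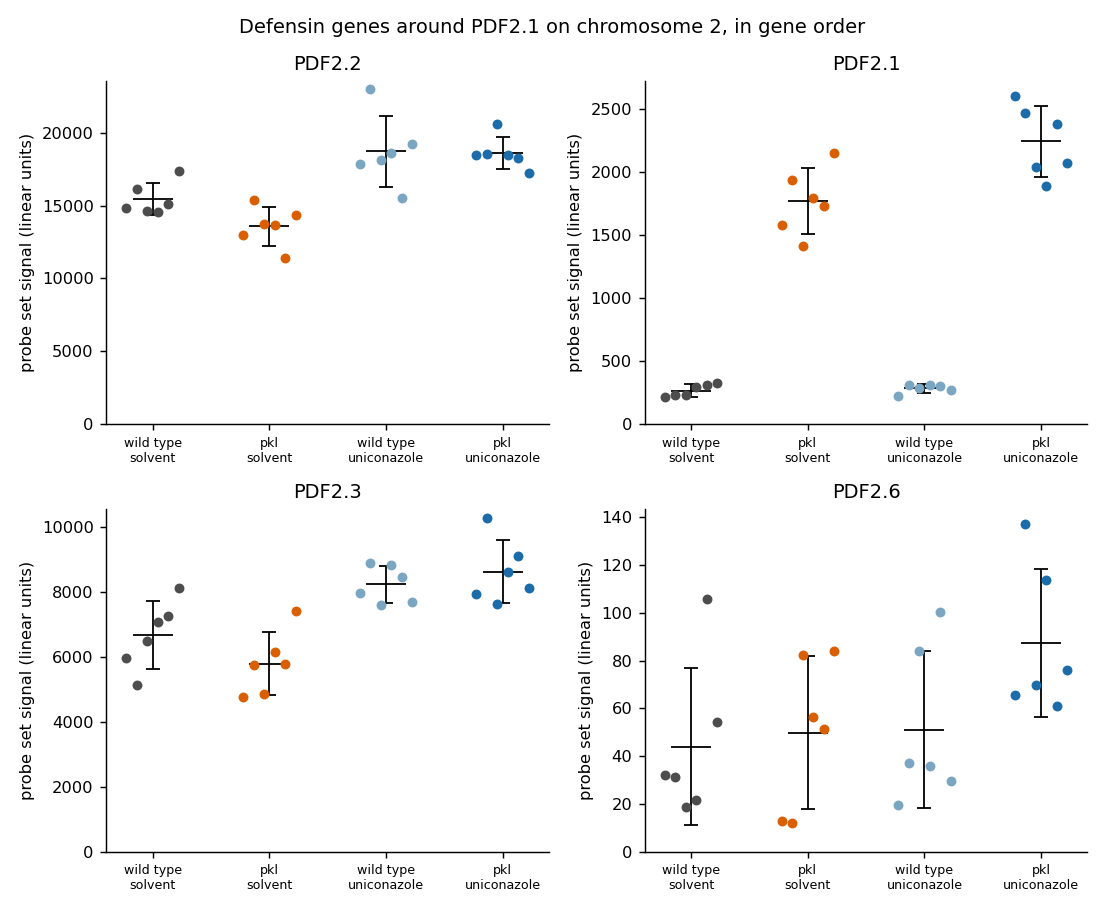
Probe set signal (linear units, axes from 0 and separate for each gene) of PDF2.2, PDF2.1, PDF2.3 and PDF2.6, in their order on chromosome 2. Points are single arrays, bars show the group mean and SD (n = 6). PDF2.1 alone splits by genotype with no overlap, while PDF2.2 and PDF2.3 have their higher means with uniconazole and PDF2.6 lies near the background of 54.9.

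The 9 other defensin genes were compared in the same fit. In solvent 3 of them were higher in pkl and 0 lower, where 6.78% of all probe sets were higher and 4.97% lower. The median log2 change of the 9 was 0.19 against 0.0011 over all probe sets. That median is the value of LCR80, whose signal was under background on every array, so no shift of the family is read from it. The strongest of the 9 was PDF1.1 (AT1G75830), the seed defensin. It lay between 3255 and 3938 in wild type (median 3639) and between 7119 and 8788 in pkl (median 7429). The groups were thus apart, with pkl higher, as for 3.71% of all probe sets. Its log2 change was 1.08 ± 0.07 (SE, limma adjusted p = 4.09e-11). In uniconazole its mean was 2.14 times as high in the mutant, 6769 ± 549 against 3164 ± 423 (SD, n = 6; adjusted p = 2.45e-11). There was again no overlap, as for 4.95% of all probe sets.

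PDF1.2b (AT2G26020) is a close relative of PDF1.2 whose probe set carries the suffix x, which marks possible cross-hybridisation, so its signal may include related genes. It was higher in pkl, opposite in sign to PDF1.2, with 449 ± 49.8 against 315 ± 74.7 in solvent (SD, n = 6; log2 change 0.51 ± 0.16, SE, limma adjusted p = 0.036) and 482 ± 109 against 281 ± 63.5 in uniconazole (0.74 ± 0.16, adjusted p = 0.00147). Its call in solvent did not hold without array 1, 2, 4 or 6 of wild type or without array 1, 3, 4, 5 or 6 of pkl (adjusted p up to 0.0925), and the call in uniconazole held under each of 32 settings. PDF1.2c, the next gene to PDF1.2 in the genome, was not analysed here.

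PDF2.5 (AT5G63660), also linked to cadmium binding, responded to both factors. In solvent it had 341 ± 82.5 in the mutant against 205.0 ± 62.7 (SD, n = 6; log2 change 0.72 ± 0.20, SE, limma adjusted p = 0.0162), a call that was lost without array 5 of pkl (adjusted p = 0.0513). In uniconazole the pkl difference did not pass (0.35 ± 0.20, adjusted p = 0.257). Without that same array 5, only PDF1.1 of the 9 passed in solvent, since PDF1.2b was lost as well (adjusted p = 0.0664).

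In uniconazole 2 of the 9 were higher in pkl and 0 lower, PDF1.1 and PDF1.2b, where 9.87% of all probe sets were higher and 8.69% lower. The median log2 change of the 9 was 0.06 and that of all probe sets 0.04.

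With uniconazole, 3 of the 9 rose in wild type and the same 3, PDF2.5, PDF2.2 and PDF2.3, rose in pkl, with 0 lower in either genotype. In wild type 9.07% of all probe sets rose and 7.43% fell, and in pkl 11.4% rose and 10.6% fell. In wild type PDF2.5 had the largest response of the family. It lay between 91.6 and 274.1 in solvent (median 211) and between 301.2 and 562.2 in uniconazole (median 515), with no overlap, as for 4.04% of all probe sets. Its log2 change was 1.21 ± 0.20 (SE, limma adjusted p = 7.39e-05), and in pkl it was 0.83 ± 0.20 (adjusted p = 0.00273), reaching 613 ± 114 (SD, n = 6). The number in wild type was 1, PDF2.5, with arrays scaled to one median or with the GAPDH ratio as a covariate.

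PDF1.1 was slightly lower with uniconazole in both genotypes and did not pass, at -0.20 ± 0.07 in wild type (SE, limma adjusted p = 0.0688) and -0.17 ± 0.07 in pkl (adjusted p = 0.0991). It passed as lower in wild type without array 2 of solvent or of uniconazole (adjusted p = 0.0413 and 0.00604). In pkl it passed with arrays scaled to one median (adjusted p = 0.0401), without array 2 of pkl in uniconazole (0.0446) and without array 2 of wild type in uniconazole (0.0447). PDF2.4 (AT1G61070), LCR59 (AT4G30070) and LCR80 (AT5G38330) had every group mean under the background of 54.9, so no fold is given for them, and 0 of 9 passed the interaction.

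**Figure D3:**
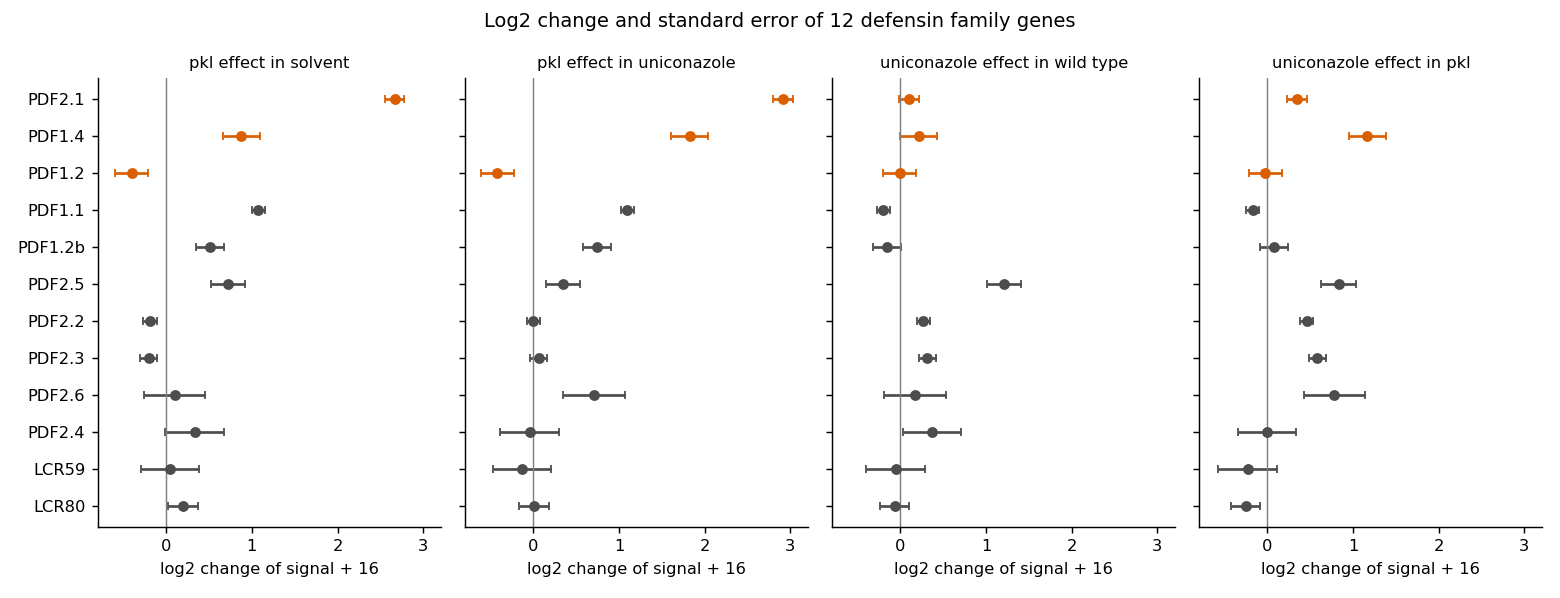
Log2 change of signal + 16 (points) with its standard error (bars) for 12 defensin family genes in 4 comparisons, PDF2.1, PDF1.4 and PDF1.2 in orange and the 9 others in grey. PDF2.1, PDF1.4, PDF1.1 and PDF1.2b are higher in pkl in both media, and PDF2.5, PDF2.2 and PDF2.3 are higher with uniconazole in both genotypes.

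Few genes of the pathways that control defensins were named on the array. Of 24 listed genes of jasmonate and ethylene synthesis, signalling and response, 2 were named, and of 9 in the salicylate list 0. EIN3 (AT3G20770), a transcription factor of ethylene signalling, had 2410 ± 159 in the mutant against 1907 ± 162 in solvent (SD, n = 6; log2 change 0.34 ± 0.08, SE, limma adjusted p = 0.007). In uniconazole its log2 change was 0.33 ± 0.08 (adjusted p = 0.00628, and 0.0591 with arrays scaled to one median). THI2.1 (AT1G72260), a jasmonate-responsive thionin gene, had group means between 40.6 and 57.2, of which 3 were under background, and passed in 0 of 4 comparisons. THI2.2 (AT5G36910), a second thionin gene, had means between 74.8 and 129.7 with SDs between 55.9 and 119.7 and also passed in 0.

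Of the 4 seed maturation genes named, 2 were higher and 1 lower in pkl in solvent, and 3 were higher in uniconazole. Of all probe sets, 6.78% were higher and 4.97% lower in solvent, and 9.87% were higher in uniconazole. The call of OLEO3 in uniconazole (log2 change 0.29 ± 0.10, SE, limma adjusted p = 0.0357) was lost with arrays scaled to one median (0.214), with no variance trend (0.0612) and with the GAPDH ratio as a covariate (0.116). It was also lost without array 1, 3, 5 or 6 of wild type or array 2, 3, 4 or 5 of pkl in uniconazole (adjusted p up to 0.083), which leaves 2 of the 4. PAP85 (AT3G22640), which encodes a storage protein related to vicilin, had 1000.1 ± 168 in the mutant against 167 ± 30.2 in solvent (SD, n = 6). M10 lay near background in wild type, at 45.8 ± 26.7 in solvent and 55.9 ± 39.2 in uniconazole (SD, n = 6), with 4 of 6 arrays at or under 54.9 in each. It was at least 4.90 times as high in pkl in solvent, at 269 ± 79.1, and had 431 ± 131 in pkl with uniconazole. From the highest pkl change over all probe sets, M10 was rank 18 in solvent and 10 in uniconazole, and PAP85 rank 14 and 7. The list was chosen with earlier results known. The genotype differences of M10 and PAP85, and the counts that include them, are therefore a description with no test. With uniconazole, 3 of the 4 rose in each genotype, where 9.07% of all probe sets rose in wild type and 11.4% in pkl, among them M17 by 1.31 ± 0.16 in wild type (adjusted p = 6.59e-07) and by 1.57 ± 0.16 in pkl (adjusted p = 1.71e-08) on the log2 scale. Whether seeds of the 2 genotypes were at the same stage of germination was not tested, since the labels do not give it. PDF1A and PDF1B share the prefix but encode peptide deformylases, not defensins. PDF1A passed in 0 of 4 comparisons, and PDF1B was lower in pkl with uniconazole (log2 change -0.31 ± 0.07, SE, limma adjusted p = 0.00264). PDF1B also rose with uniconazole in wild type (0.28 ± 0.07, adjusted p = 0.0071, and 0.0574 with arrays scaled to one median).

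To find the genes most like each member, the values of every gene were centred on their own mean over the 24 arrays, and 10220 candidates above background were ranked by the root mean square difference from the member. This is a description, since the members had been chosen for their pattern. The 5 nearest to PDF2.1 were AT4G24130 (0.41 on the log2 scale), AT1G52100 (0.47), AT3G23060 (0.48), PAP85 (0.48) and AT4G00390 (0.48), where PDF2.1 itself varied by 1.41 about its mean. AT4G24130 had 766 ± 86.2 in the mutant against 115 ± 18.9 in solvent, and 633 ± 98.8 against 137 ± 36.8 in uniconazole (SD, n = 6). With uniconazole in wild type, AT1G52100 went from 1074 ± 331 to 1770 ± 264 (SD, n = 6; log2 change 0.75 ± 0.13, SE). PAP85 went from 167 ± 30.2 to 304 ± 75.8 (0.79 ± 0.14), where PDF2.1 changed by 0.10 ± 0.11. The 5 genes were ranked on these same arrays, so these values too are a description with no test.

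Nearest to PDF1.4 were AT3G05260 (0.27), the calmodulin-like gene CML41 (0.32), FDH (0.39), which encodes formate dehydrogenase, AT5G46230 (0.40) and AT3G56350 (0.42), where PDF1.4 varied by 0.87. AT3G05260 had 157 ± 40.6 in wild type and 284 ± 37.2 in pkl in solvent, 190 ± 37.0 and 743 ± 155 in uniconazole (SD, n = 6). CML41 had 116 ± 27.1, 237 ± 29.6, 134 ± 14.9 and 461 ± 40.1 in the same order, with less scatter in pkl with uniconazole than PDF1.4 had. The nearest to PDF1.2, AT4G24090, differed by 0.27 where PDF1.2 varied by 0.38, a larger share of the member's own spread.

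**Figure D4:**
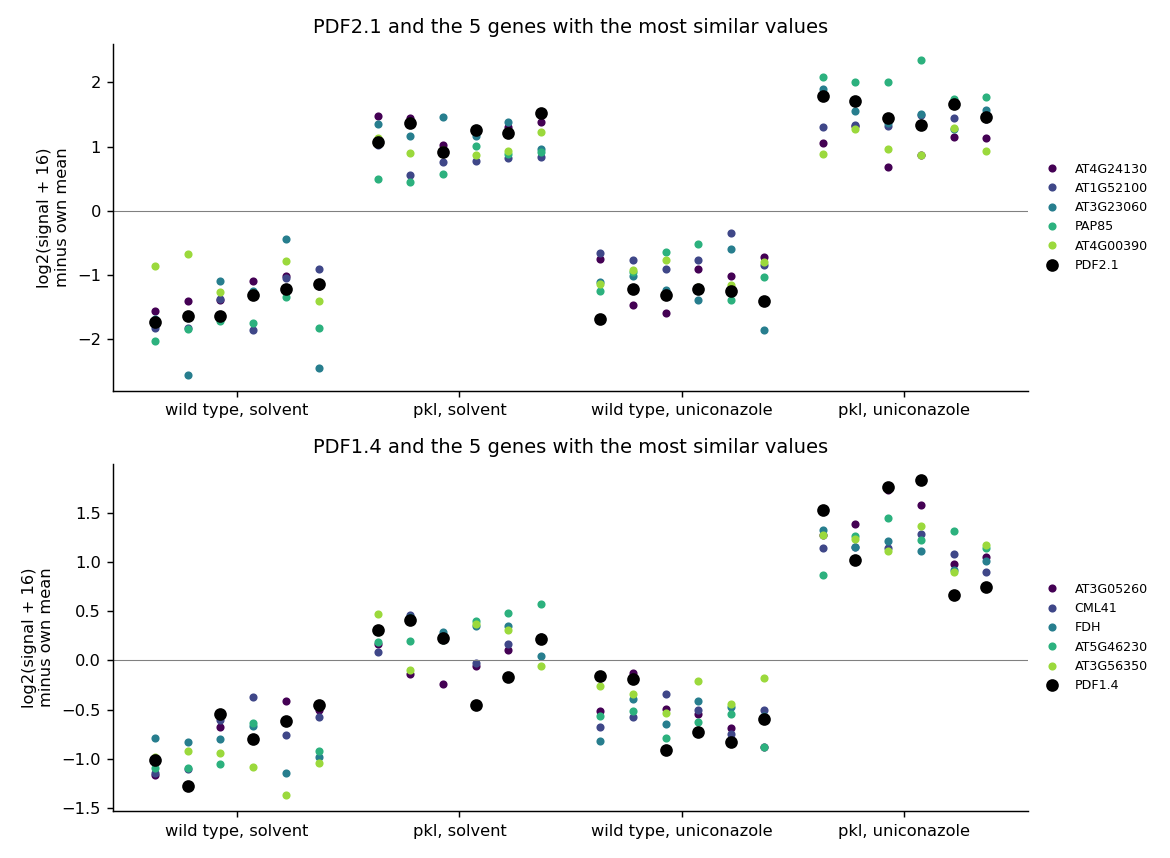
Log2(signal + 16) minus each gene's own mean over 24 arrays, for PDF2.1 (upper panel) and PDF1.4 (lower panel) in black and the 5 genes nearest to each in colour. Each point is 1 array, and the 4 groups of 6 arrays are set apart. The genes near PDF2.1 are split by genotype, and those near PDF1.4 are highest in pkl with uniconazole.

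Genes beside the other members that a probe set names alone were examined too. Of all probe sets, 18.6% passed for pkl in uniconazole, 16.5% for uniconazole in wild type and 22% for uniconazole in pkl. AT1G19620 and AT1G19650, after PDF1.4, and AT5G44450, after PDF1.2, did not pass in any comparison. AT1G19600, which precedes PDF1.4, was higher in pkl with uniconazole (log2 change 0.33 ± 0.07, SE, limma adjusted p = 0.00144) and rose with uniconazole in pkl (0.31 ± 0.07, adjusted p = 0.00154). JMT (AT1G19640), a methyltransferase of jasmonic acid that lies 3 genes after PDF1.4, was under background in every group. Among the genes after PDF1.2, AT5G44440 had every group mean under background. CML43 (AT5G44460), 4 genes after PDF1.2, was lower in pkl with uniconazole (log2 change -0.41 ± 0.10, SE, limma adjusted p = 0.00277) and did not pass in solvent (-0.20 ± 0.10, adjusted p = 0.191). It fell with uniconazole by 0.43 ± 0.10 in wild type (adjusted p = 0.00203) and by 0.64 ± 0.10 in pkl (adjusted p = 1.04e-05) on the log2 scale.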

How the data were processed

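Probe set intensities of 24 ATH1 arrays were analysed as deposited by the authors. They were made with MAS5, per the submitters' processing notes; no version or settings of it are given in the sources used here. On all 24 arrays the mean, after trimming 2% at each end, was 1000.1, which is a scaling to one trimmed mean. After 64 controls were left out, 22746 probe sets were tested. The annotation gave 13513 of them 1 gene, 503 several and the rest none, and RefSeq's TAIR10.1 table held 13436 of the 13513, from which locus codes, names and gene order were taken. No coordinates are given, as the files name no build, and no sequences.

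Log2(signal + 16) was fitted with limma 3.58.1 (R 4.3.3; lmFit, eBayes with a variance trend) over all 4 groups, with two-sided p-values and Benjamini-Hochberg adjustment at 0.05 within each comparison. The fit was tested on simulated data. Background was the 95th percentile, 54.9, of 648 values of 27 bacterial control probe sets. Where a mean lay at or under it, a fold is a bound. The number of arrays limits the precision, and p-values set group differences against the spread between these arrays.

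The members and lists were chosen with earlier results of these data known. Named genes were the 3 members, all defensins and pathway genes of 8 lists (72 genes, 20 named on the array), genes with the PDF prefix, and for each member the 5 nearest genes; genes next to the members were added after their values were seen. The labels do not state that set numbers pair the arrays, so numbers were not taken as pairs. Same-numbered arrays correlated above 0.1 in their deviations in 7 of 36 pairs (median 0.04). Arrays with different numbers were not compared, so this does not decide whether the sets are paired. Alternatives were other offsets, scalings, a filter, no variance trend, a replicate block, the GAPDH ratio as a covariate, exact permutation tests and leaving out each array.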

Additional observations from a re-analysis of the deposited data

Results flagged for a closer look

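On arrays of pkl in solvent, PDF1.2b had its lowest value, 352.2, far from the nearest other array at 441.7, and ICL had its highest, 41289.3, far from the next at 36826.1. These were 2 of 69 groups examined, and chance gives about 1 in 20. OLEO3, an oleosin gene of seed oil bodies, had a pkl effect that differed between media (interaction 0.86 ± 0.14 on the log2 scale, SE, limma adjusted p = 0.00371): it was 1384 ± 208 in pkl and 2068 ± 327 in wild type in solvent, and 4667 ± 286 and 3827 ± 440 in uniconazole (SD, n = 6). Of the 9 other defensin genes 0 passed the interaction, and PDF1.2 did not pass either (limma adjusted p = 0.994). The interaction of PDF1.4, 0.95 ± 0.30 (SE), is a description with no test, and so is that of PDF2.1.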

How the results depend on the processing

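Of 652 values recomputed for the members and for the counts of probe sets, 630 kept their side of the threshold or, for counts, stayed within 1.5 times, and 0 called values reversed. The 652 include the genotype differences of the members, which are a description, so the total is no support for those. The rise of PDF2.1 with uniconazole in pkl was 0.27 with arrays scaled to one median (adjusted p = 0.127) and 0.32 with the GAPDH ratio as a covariate (0.0753), and it ran from 0.28 to 0.40 with 1 array left out. For uniconazole against solvent, leaving out 1 array changed no call of PDF1.4 or PDF1.2. The difference of PDF1.2 between genotypes, -0.40 in solvent and -0.42 in uniconazole, is a description with no test. The interaction called 20 probe sets without a variance trend and 15 to 39 with 1 array left out, in place of 32. With the GAPDH ratio as a covariate, 2456 probe sets passed for uniconazole in wild type in place of 3755. The cause was not tested. With a replicate block, 3037 probe sets passed for pkl in solvent in place of 2672 and 5342 for uniconazole in pkl in place of 4999. No member changed its call for uniconazole against solvent there. Scaling to one median turned the split of higher to lower calls from 1542 and 1130 to 1131 and 1437 for pkl in solvent, from 2246 and 1976 to 1570 and 2830 for pkl in uniconazole, from 2064 and 1691 to 1411 and 2187 for uniconazole in wild type, and from 2594 and 2405 to 1747 and 3169 for uniconazole in pkl. Signals near the background of 54.9 limit PDF2.4, PDF2.6, LCR59, LCR80, THI2.1 and M10 in wild type.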
